A study of Mus musculus with 24 samples.

Results

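Cytosolic ribosomal protein genes encode the proteins of the ribosome that translates nuclear messages. They were taken as every gene whose probe set carries a single platform symbol of the Rpl, Rps, Rplp or Rpsa form, with pseudogene symbols left out and the probe set of the highest mean standing for a gene that has several. The rule found 61 genes with 217 probe sets, among 19938 named genes and 35556 probe sets. Of the 61, 60 passed the filter on dim genes and were tested among 15647 genes. The testis-associated paralog Rpl39l, with a mean log2 signal of 4.66, did not pass it. By role, 30 members belong to the large subunit, 21 to the small subunit, 3 to the stalk of the large subunit and 7 are paralogs of a ribosomal protein gene. Of 77 canonical ribosomal protein genes listed, 54 had a member, 16 sit only in probe sets with several symbols and 7 were not analysed here. All 61 symbols matched a RefSeq gene of the same symbol on 17 chromosomes, and 60 of these are protein coding. Rps4l is annotated there as a transcribed pseudogene.

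RNA of bone marrow B cells was measured on 24 arrays, 1 per mouse, and all mice had received 2 Gy of ionizing radiation, so no group is unirradiated. The groups are preleukemic wild type (n = 3), preleukemic Pax5+/- (n = 7), leukemic wild type (n = 4) and leukemic Pax5+/- (n = 10), where Pax5+/- mice carry 1 functional allele of the B-lineage transcription factor Pax5. All labels, those of leukemic mice included, give 3 weeks of irradiation, and the labels used here give neither age nor sex. Preleukemic material is described as pro-B and pre-B cells and leukemic material as tumor-bearing marrow, so cell material and disease stage cannot be told apart. Values are deposited log2 signals, and a difference of 1 on that scale is 2-fold.

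Ribosomal proteins are needed in mostly equal numbers in each particle, and their genes are among the most highly expressed in dividing cells. Their messages begin with a tract of pyrimidines, the terminal oligopyrimidine tract, through which growth signals passing through mTOR and the RNA-binding protein Larp1 control how much of each message is translated. Transcription of the genes and assembly of the subunits in the nucleolus are raised by Myc, and mutations in several of the genes cause Diamond-Blackfan anemia, a failure of red cell production.

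Start regions are shown for members that the stage comparisons turn on, to let the pyrimidine tract be seen. Each runs from 75 bases before to 25 bases after the RefSeq start (GRCm38.p6), on the strand of the gene, and capitals mark the longest run of C or T that touches the window from 20 bases before to 30 bases after the start.
Rps12: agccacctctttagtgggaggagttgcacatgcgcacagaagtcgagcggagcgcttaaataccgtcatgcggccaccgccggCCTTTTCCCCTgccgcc
Rpl22: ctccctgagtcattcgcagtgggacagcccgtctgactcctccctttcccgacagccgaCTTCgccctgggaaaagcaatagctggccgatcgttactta
Rps27l: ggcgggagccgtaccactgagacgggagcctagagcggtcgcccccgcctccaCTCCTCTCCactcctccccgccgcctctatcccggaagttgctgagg
Rps18: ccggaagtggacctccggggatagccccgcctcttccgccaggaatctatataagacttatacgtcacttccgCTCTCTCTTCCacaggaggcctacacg
Rpl28: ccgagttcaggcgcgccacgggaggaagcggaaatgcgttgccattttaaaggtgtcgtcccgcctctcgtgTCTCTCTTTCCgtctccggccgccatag
Rps6: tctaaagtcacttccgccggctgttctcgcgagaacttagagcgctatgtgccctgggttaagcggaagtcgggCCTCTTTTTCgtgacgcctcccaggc

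These regions lie at chr10:23787185-23787284 (Rps12, minus strand), chr4:152325651-152325750 (Rpl22, plus), chr9:66946011-66946110 (Rps27l, plus), chr17:33955641-33955740 (Rps18, minus), chr7:4792890-4792989 (Rpl28, plus) and chr4:86857343-86857442 (Rps6, minus). The run is 11 bases long in Rps12, Rps18 and Rpl28, 10 in Rps6, 9 in Rps27l and 4 in Rpl22. For Rpl22 and Rps27l the RefSeq table lists 2 starts, with the first shown. In Rps27l another run of the same length lies nearer the start, and the earlier one is marked. In Rpl22 a longer run ends before the window. Among the 49 members with a 300-base RefSeq start region, 29 (59.2%) hold a run of at least 8 C or T in the window, against 26.4% of 27025 genes. The run was present in 15 of the 27 tested members that were higher in leukemic Pax5+/- arrays, 2 of the 3 that were lower and 11 of the 18 that were not called.

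Other motifs were searched on both strands of the 300 bases, and sites of different motifs may share letters, as the AAG that ends the first motif below and begins the third. The core of ETS factor sites, CCGGAAG, occurred in 19 of 49 members (38.8%) against 9.93% of all genes, and in 9 of the 27 higher members against 8 of the 18 that were not called. The E-box CACGTG, which Myc can bind, occurred in 5 members (10.2%) against 8.09% of all genes. The YY1 core AAGATGGC occurred in 3 members (6.12%, all genes 3.19%) and TATAAA in 6 (12.2%, all genes 15.7%). A match describes the letters only.

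The labelled cell type was checked against its markers. The mean of 9 B-lineage markers was 11.98 ± 0.125 (SD, n = 3) in preleukemic wild-type and 11.88 ± 0.111 (n = 7) in preleukemic Pax5+/- arrays, and 10.16 ± 0.597 (n = 4) and 10.52 ± 0.325 (n = 10) in the leukemic groups. Platelet markers averaged from 6.80 to 7.05 on preleukemic arrays and from 8.14 to 11.11 on leukemic arrays, and markers of mitosis averaged 8.67 and 9.90 in preleukemic and leukemic Pax5+/- mice. One array, the first of the preleukemic wild type, lay away from the other two: granulocyte markers averaged 10.69 on it and 6.70 and 6.72 on those, and mitosis markers 10.05 against 8.02 and 8.18. Leukemic wild-type array 2 had a T and NK cell marker mean of 8.47, where the others of its group lay at 6.10 to 6.42. Its B-lineage mean, 9.28, was the lowest of all arrays. Of the listed markers, 7 of 9 B-lineage markers were called lower in leukemic Pax5+/- and 6 of 9 in leukemic wild-type arrays, and 6 of 6 platelet markers were higher in both. Markers of mitosis were higher for 15 of 15 and 14 of 15, of monocytes and macrophages for 10 of 11 and 5 of 11, of granulocytes for 11 of 15 and 0 of 15, and of stroma and endothelium for 8 of 10 in both. Of the 10 stromal and endothelial markers, 1 was lower in each genotype. T and NK cell markers were higher for 1 of 8 in leukemic Pax5+/- and 0 of 8 in leukemic wild-type arrays. Erythroid markers were higher for 4 of 7 in leukemic wild type (median 0.95), for none in leukemic Pax5+/- arrays, where 1 was lower, and lower for 4 of 7 in leukemic Pax5+/- than in leukemic wild-type arrays (median -1.92). Granulocyte means ran from 6.26 to 10.96 on leukemic Pax5+/- and from 8.37 to 10.36 on leukemic wild-type arrays. Arrays with high Y-linked signal numbered 3 of 3 in preleukemic and 0 of 4 in leukemic wild type, and within that genotype sex goes with stage and cannot be told apart from it. Among Pax5+/- arrays they numbered 4 of 7 preleukemic and 5 of 10 leukemic. In these bulk samples a smaller share of a cell type and less of its RNA per cell cannot be told apart, and the part of these marker differences in the results below was not tested.

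In Pax5+/- mice, more ribosomal protein genes were higher than lower in leukemic arrays. Of the 60 tested members, 32 were higher, 4 were lower and 24 were not called, at an adjusted p under 0.05 (limma, Benjamini-Hochberg over 15647 genes). Of all tested genes 62.9% were called in this comparison, 27.8% higher and 35.1% lower. The members' calls in both directions together were thus about as frequent as those of all genes, and more of them were higher. The median member difference was 0.19 on the log2 scale, beside -0.05 over all tested genes. No member differed by 1 or more, and the SD between members' differences was 0.25, beside 0.66 over all tested genes. Groups did not overlap for 12 higher and 2 lower members, where 11.7% and 10.5% of tested genes had such groups.

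Wild-type mice showed a similar split. There 36 members were higher, 1 was lower and 23 were not called, beside 39.1% of all tested genes called, 18.7% of them higher and 20.4% lower. The median member difference was 0.26, and over all tested genes it was -0.05. Groups did not overlap for 38 higher members, where 18.9% of tested genes had such groups, and for 2 lower members, Rpl3l and Rps4l, where 20.4% had. Without preleukemic wild-type array 1 the calls were 33 higher and 2 lower. Without preleukemic wild-type array 3, on which the family mean was lowest, they were 21 higher and 1 lower. The shares of all tested genes in these fits are not given here. These changes are thus not shown to be particular to the members.

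**Figure D1:**
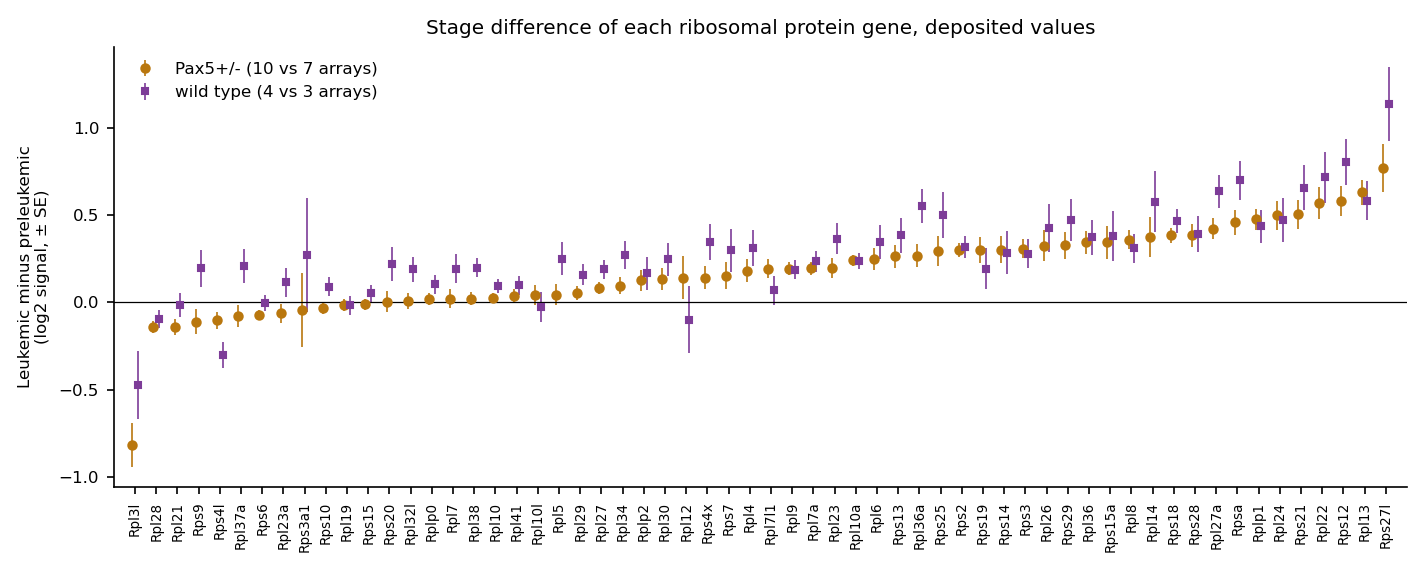
Difference in log2 signal between leukemic and preleukemic arrays (vertical axis, ± SE of the fit) for each of the 60 tested ribosomal protein genes, ordered by the Pax5+/- value (circles, 10 against 7 arrays) with the wild-type value beside it (squares, 4 against 3 arrays). Differences run from -0.82 for Rpl3l to 0.77 for Rps27l in Pax5+/- mice, and Rps27l reaches 1.14 in wild type.

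The stage comparisons of the genotypes share no array, and 29 members were higher in both. The share of all tested genes that were higher in both is not given here, so this count is not shown to be particular to the members. A further 3 (Rpl7l1, Rps14 and Rps19, the second outside the naming rule) were called higher only in Pax5+/- mice and 7 only in wild type, which is no test of a difference between the genotypes. Neither comparison called 16 members, and no member was lower in both or called in opposite directions. Across the 60 members the differences of the genotypes had a Pearson correlation of 0.878 and a Spearman correlation of 0.859, beside 0.901 and 0.857 over all tested genes. Members share their arrays, so this describes the ordering and is no test.

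Direction depends on what the arrays are aligned to. The median over all 35556 probe sets was higher on preleukemic arrays (6.27 in wild type and 6.25 in Pax5+/-) than on leukemic arrays (6.20 and 6.18). The median over the 15647 tested genes moved the other way, from 7.20 and 7.13 to 7.32 and 7.33. Centring each array on the first median gave 41 higher and 1 lower members in Pax5+/- mice and 44 and 1 in wild type, where 32.4% and 22.4% of all tested genes were called higher and lower in the former and 21.6% and 13.9% in the latter. Centring on the second, an alternative chosen after the data were seen, gave 13 higher and 22 lower in Pax5+/- mice and 17 and 3 in wild type. That centring took the median of all tested genes to -0.25 in Pax5+/- and -0.18 in wild-type mice, with 18.1% higher and 57.1% lower in the former and 14.1% and 36.7% in the latter. The members' medians were then -0.01 and 0.14. Groups did not overlap for 2 higher and 8 lower members in Pax5+/- mice, where 6.32% and 32% of tested genes had such groups, and for 18 and 2 in wild type, where 13.9% and 25.1% had.

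**Figure D2:**
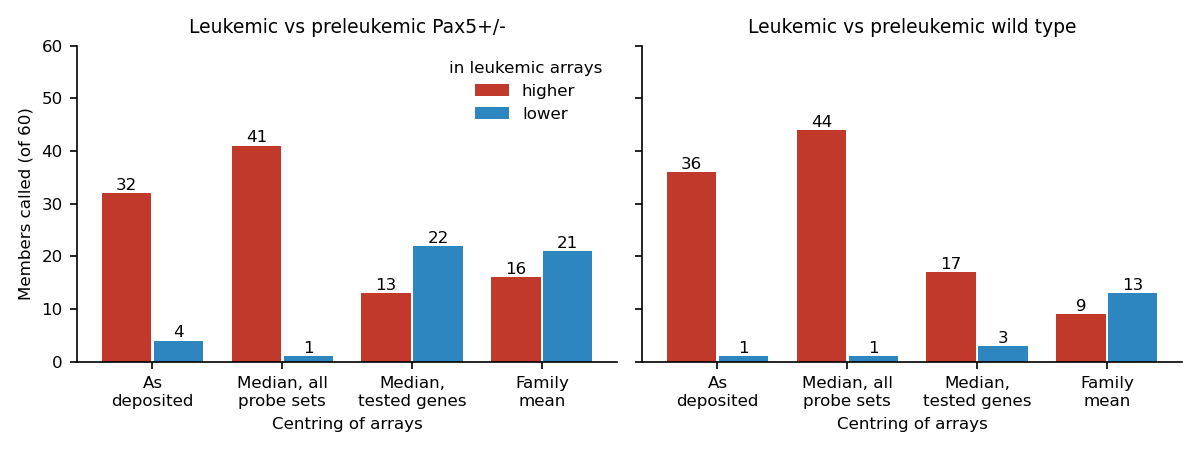
Number of the 60 tested ribosomal protein genes called higher (red) or lower (blue) in leukemic arrays, on a bar axis from 0, under 4 alignments of the arrays, for Pax5+/- mice (left) and wild type (right). The Pax5+/- counts go from 32 higher and 4 lower on deposited values to 13 higher and 22 lower after centring on the median of tested genes.

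The mean over the 60 members was 11.06 ± 0.09 (SD, n = 3) in preleukemic wild-type, 11.13 ± 0.08 (n = 7) in preleukemic Pax5+/-, 11.34 ± 0.04 (n = 4) in leukemic wild-type and 11.32 ± 0.07 (n = 10) in leukemic Pax5+/- arrays, on deposited values. The wild-type arrays were 11.15, 11.07 and 10.97 before leukemia and 11.29, 11.34, 11.37 and 11.38 in leukemia, and did not overlap. Pax5+/- arrays ran from 11.05 to 11.24 (median 11.14) before leukemia and from 11.22 to 11.42 (median 11.30) in leukemia, and overlapped. Centred on the median of tested genes, the group means became 11.12, 11.26, 11.28 and 11.24 in the same order, the wild-type stages met at 11.21 and the Pax5+/- stages overlapped.

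**Figure D3:**
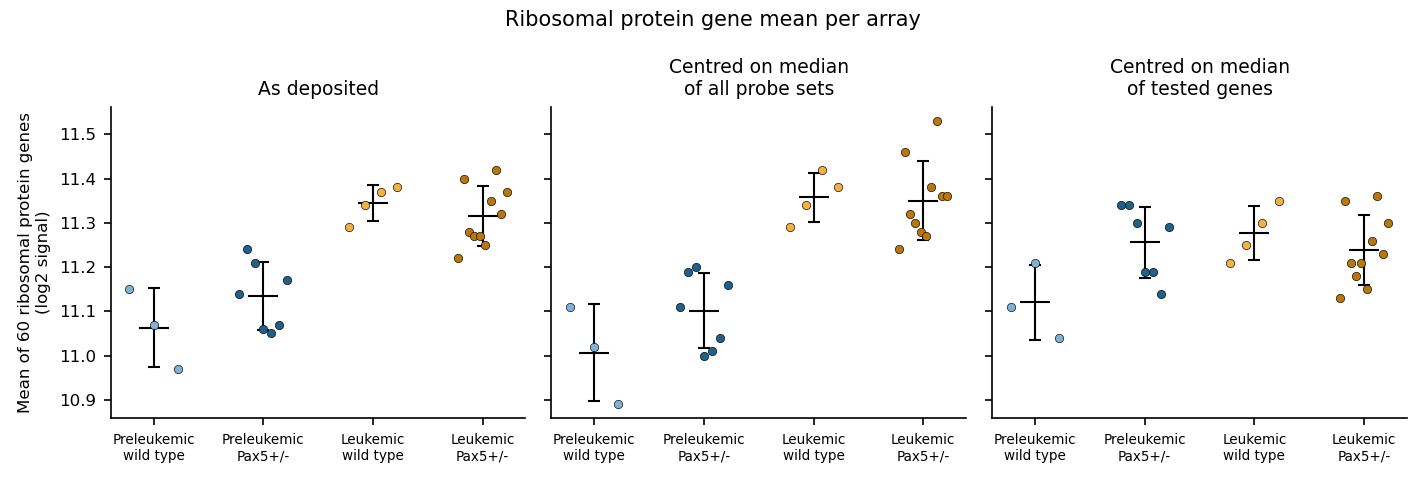
Mean log2 signal of the 60 tested ribosomal protein genes on each array (points), with the mean and SD of each group (bars), for deposited values and 2 centrings. On deposited values leukemic arrays lie at 11.22 to 11.42 and preleukemic arrays at 10.97 to 11.24, whereas after centring on the median of tested genes the group means lie between 11.12 and 11.28.

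A subset kept its direction. Under deposited values and both median centrings, 12 members were higher in leukemic arrays of both genotypes: Rpl13, Rpl22, Rpl24, Rpl27a, Rplp1, Rps2, Rps12, Rps18, Rps21, Rps27l, Rps28 and Rpsa. This set was defined after its values were seen, and the share of all tested genes that meet the same rule is not given here. In Pax5+/- mice Rpl8 joined them, and Rpl3l was lower under all 3. In wild type Rpl14, Rpl23, Rpl36a, Rps25 and Rps29 joined, and Rps4l was lower under all 3. By contrast Rpl10, Rpl27, Rpl29, Rpl38 and Rpl41 were called higher under one scaling and lower under another in Pax5+/- mice. Centred on the mean of the family itself, which sets the members' average difference near 0 so that calls in both directions follow from it, 16 were higher and 21 lower in leukemic Pax5+/- arrays and 9 and 13 in wild type. Of all tested genes 18.6% were then higher and 55% lower in Pax5+/- mice, and 9.96% and 55% in wild type. Of the 12 members named above, Rpl24, Rplp1, Rps2 and Rps28 were then not called in wild type.

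Of the 30 large-subunit members, 16 were higher and 2 lower in leukemic Pax5+/- arrays (median 0.16), and 21 were higher and none lower in wild type (median 0.24), to be read against the shares of all tested genes given above. The counts turned to 5 higher and 12 lower in Pax5+/- mice (median -0.04), and became 7 and 1 in wild type, with arrays centred on the median of tested genes. Rpl13 had the largest difference of these in Pax5+/- mice. Its level ran from 10.38 to 10.64 (median 10.50) on preleukemic and from 10.84 to 11.42 (median 11.14) on leukemic Pax5+/- arrays, without overlap. The 1.55-fold difference was 0.63 ± 0.07 (SE) on the log2 scale (adjusted p = 1.73e-07, limma). Wild-type arrays read 10.66, 10.50 and 10.56 before leukemia and 11.01, 11.27, 11.15 and 11.21 in leukemia. They did not overlap either, and differed by 0.58 ± 0.11 (adjusted p = 0.000334, limma).

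Rpl22 is dispensable for most translation and needed for T-cell development in mice, and its human gene is lost in part of T-cell leukemias. Its preleukemic Pax5+/- arrays ran from 7.60 to 8.22 (median 8.00) and its leukemic ones from 8.24 to 8.88 (median 8.54), so the ranges were adjacent without overlap. The difference was 0.57 ± 0.09, or 1.49-fold (adjusted p = 2.34e-05, limma). In wild type the preleukemic arrays read 8.04, 7.71 and 7.61 and the leukemic arrays 8.40, 8.48, 8.62 and 8.52. All leukemic arrays were the higher ones, by 0.72 ± 0.15 or 1.65-fold (adjusted p = 0.00055, limma). Preleukemic array 1 was the highest of its group, as it was for Rpl13, Rps12, Rpsa and Rps27l, and without it the difference was 0.85 ± 0.16.

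Rpl5, which with the 5S RNA and Rpl11 binds Mdm2 and so links ribosome assembly to p53, was not called in Pax5+/- mice, where the difference was 0.04 ± 0.06. Its wild-type levels were 12.29, 11.96 and 11.71 before leukemia and 12.29, 12.17, 12.23 and 12.25 in leukemia, which overlap. The wild-type call, 0.25 ± 0.09 (adjusted p = 0.036, limma), kept its direction and its call in only 9 of 19 alternatives. It was lost, for example, with repeated quantile normalization (0.17, adjusted p = 0.153) and with only the groups compared (adjusted p = 0.196, limma). It was also lost without preleukemic array 3, where the difference was 0.11 ± 0.09. Without array 1 the difference was 0.40 ± 0.08. Rpl36a was called higher in both, by 0.27 in Pax5+/- and 0.55 in wild-type mice, and its leukemic wild-type arrays (12.58, 12.57, 12.58 and 12.55) were closer together than its preleukemic ones (12.26, 11.95 and 11.83). Centred on the median of tested genes, its Pax5+/- difference was 0.07 and not called (adjusted p = 0.314, limma).

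The large-subunit members called lower in Pax5+/- mice were both among the brightest genes. Rpl28 lay between 13.39 and 13.52 (median 13.45) on preleukemic and between 13.23 and 13.37 (median 13.34) on leukemic Pax5+/- arrays, a narrow separation without overlap. It fell by 0.14 ± 0.03 or 1.10-fold (adjusted p = 0.00106, limma). All 5 of its probe sets had differences between -0.15 and -0.14. Wild-type arrays read 13.34, 13.54 and 13.46 and then 13.34, 13.36, 13.33 and 13.38, which overlap, and the difference of -0.10 was not called. Rpl21 fell by 0.14 ± 0.04 in Pax5+/- mice (adjusted p = 0.00952, limma) and its wild-type difference was -0.02. Its 9 probe sets had Pax5+/- differences from -0.14 to -0.01, of which the one used was the lowest, and with their mean the difference was -0.05 and not called (adjusted p = 0.153, limma). With the replicate block it was -0.11 and not called (adjusted p = 0.0667, limma). With arrays centred on the median of all probe sets, neither Rpl28 (-0.07, adjusted p = 0.0949) nor Rpl21 (-0.07, adjusted p = 0.187) was called (limma).

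**Figure D4:**
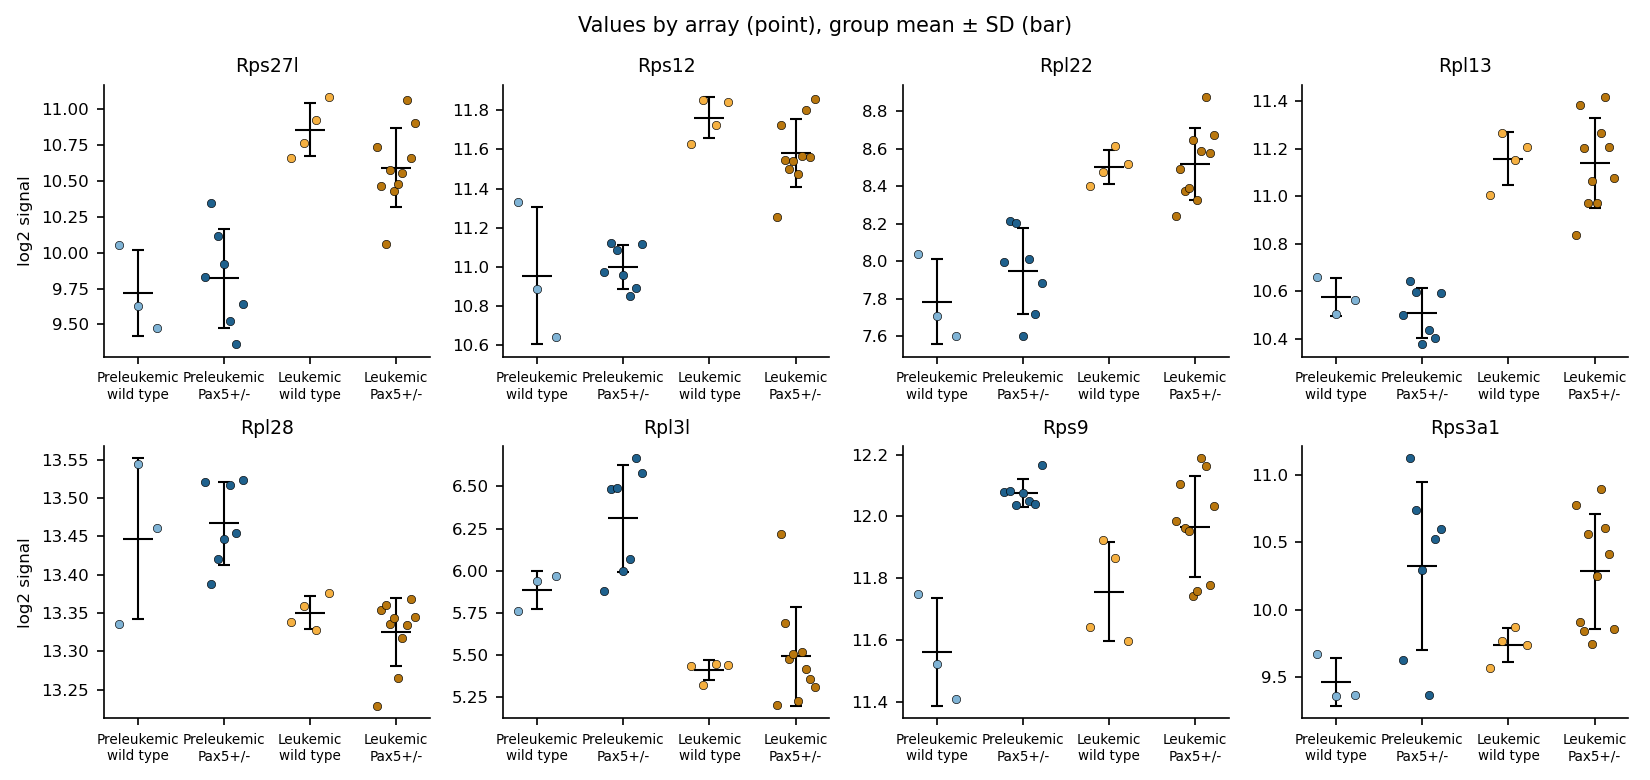
Log2 signal of 8 ribosomal protein genes on each array (points) with the mean and SD of each group (bars), for the 4 groups. Rps27l, Rps12, Rpl22 and Rpl13 lie higher on leukemic arrays, Rpl28 and Rpl3l lie lower on leukemic Pax5+/- arrays, Rps9 lies higher on preleukemic Pax5+/- than on preleukemic wild-type arrays, and Rps3a1 spreads from 9.37 to 11.13 on the former.

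Of the 21 small-subunit members, 13 were higher and 1 lower in Pax5+/- mice (median 0.30), and 12 were higher and none lower in wild type (median 0.32). These counts became 6 and 5 (median 0.10) and 8 and 0 with arrays centred on the median of tested genes. Both sets of counts are to be read against the shares of all tested genes given above. Rps12 was higher in both. Its Pax5+/- arrays ran from 10.85 to 11.12 (median 10.97) before leukemia and from 11.26 to 11.86 (median 11.55) in leukemia, without overlap, a difference of 0.58 ± 0.09 (adjusted p = 5.43e-06, limma). Wild-type arrays read 11.33, 10.89 and 10.64 and then 11.63, 11.85, 11.73 and 11.84, with every leukemic array above every preleukemic one. That difference was 0.81 ± 0.13, or 1.75-fold (adjusted p = 6.73e-05, limma). All 14 of its probe sets were higher, by 0.50 to 0.71 in Pax5+/- and by 0.77 to 0.90 in wild-type mice. Several of them had the same level and differences, so the 14 may not be separate measurements.

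Rpsa, which is both a small-subunit protein and a laminin receptor, was 1.38-fold higher in leukemic Pax5+/- mice (0.46 ± 0.07, adjusted p = 1.06e-05, limma). Preleukemic Pax5+/- arrays ran from 11.37 to 11.65 (median 11.54) and leukemic ones from 11.80 to 12.13 (median 11.99). In wild type, 11.94, 11.39 and 11.39 stood against 12.13, 12.34, 12.28 and 12.34, a 1.63-fold difference (0.70 ± 0.11, adjusted p = 4.17e-05, limma). Neither genotype overlapped between stages. Rps21 rose by 0.51 ± 0.08 in Pax5+/- and by 0.66 ± 0.13 in wild-type mice. Rps18, whose start region is shown above and which lies outside the naming rule, was 0.39 ± 0.04 and 0.47 ± 0.07 higher, and its leukemic wild-type arrays lay close to each other, at 12.80, 12.77, 12.79 and 12.81.

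Rps19, the gene most often mutated in Diamond-Blackfan anemia, was 0.30 ± 0.07 higher in leukemic Pax5+/- arrays (adjusted p = 0.00143, limma), with overlapping ranges of 11.06 to 11.39 and 11.22 to 11.76. Centred on the median of tested genes, the difference was 0.11 ± 0.08 and not called. In wild type the difference was 0.19 ± 0.12 and was not called. Of the 9 members of a list of 19 Diamond-Blackfan genes, 6 were higher and none lower in each genotype. With centring on the median of tested genes, the counts were 1 and 3 in Pax5+/- and 2 and 0 in wild-type mice. Of all tested genes 27.8% were higher and 35.1% lower in Pax5+/- mice on deposited values, and 18.7% and 20.4% in wild type. After the centring these shares were 18.1% and 57.1% in Pax5+/- mice, and 14.1% and 36.7% in wild type.

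Rps6, the substrate of S6 kinase, was the small-subunit member called lower in Pax5+/- mice, by 0.07 ± 0.03 (adjusted p = 0.0274, limma). Its preleukemic Pax5+/- arrays lay between 13.39 and 13.45 and its leukemic ones between 13.28 and 13.38, with no overlap over a span of under 0.2. Wild-type values were 13.34, 13.39 and 13.28 before leukemia and 13.41, 13.29, 13.32 and 13.32 in leukemia, a difference of 0.00. The Pax5+/- call was lost in 6 of 29 alternatives. Among these were centring on all probe sets, where the difference was 0.00 (adjusted p = 0.906, limma), and the replicate block (-0.05, adjusted p = 0.206, limma).

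The stalk proteins recruit translation factors to the ribosome, and 1 of the 3 was higher in each genotype. Rplp1 and Rplp2 lie outside the naming rule and are given to complete the stalk. Rplp1 ran from 12.33 to 12.64 (median 12.40) and from 12.78 to 13.07 (median 12.88) in preleukemic and leukemic Pax5+/- arrays, without overlap. It was higher by 0.48 ± 0.06 (adjusted p = 7.15e-07, limma) and in wild type by 0.44 ± 0.09 (adjusted p = 0.000905, limma). Rplp0, used widely as a reference gene, differed by 0.02 ± 0.04 and 0.10 ± 0.06, and Rplp2 by 0.13 and 0.17. None of these 4 differences was called.

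The paralogs did not move with one another. Rps27l, a p53-responsive relative of Rps27, had the largest rise of all members in both genotypes. Its Pax5+/- arrays ran from 9.36 to 10.35 (median 9.83) before leukemia and from 10.06 to 11.06 (median 10.56) in leukemia, overlapping at the edges. The difference was 0.77 ± 0.14, or 1.71-fold (adjusted p = 5.47e-05, limma). Wild-type arrays read 10.05, 9.63 and 9.47 and then 10.66, 10.76, 10.92 and 11.09, without overlap, a 2.20-fold difference (1.14 ± 0.21, adjusted p = 0.000243, limma).

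Rpl3l, the striated-muscle paralog of Rpl3, was dim and fell. On preleukemic Pax5+/- arrays it lay between 5.88 and 6.67 (median 6.49), on leukemic ones between 5.21 and 6.22 (median 5.45), where leukemic array 2 alone held the 6.22. The fall was 0.82 ± 0.13, or 1.76-fold, in Pax5+/- mice (adjusted p = 1.02e-05, limma). Values of 5.76, 5.94 and 5.97 stood against 5.44, 5.32, 5.45 and 5.44 in wild type, without overlap, but the difference of -0.48 ± 0.20 was not called (adjusted p = 0.0576, limma). The 30th percentile of each array, the filter's limit, was between 5.18 and 5.35, so leukemic values of this gene were near it and the fold may be understated.

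Rps4l read 7.05, 6.99 and 7.07 in preleukemic and 6.70, 6.69, 6.70 and 6.86 in leukemic wild type. This fall of 0.30 ± 0.08 (adjusted p = 0.00311, limma) was not called when its 2 probe sets were averaged, where the difference was -0.09. In Pax5+/- mice the difference of -0.10 was not called. Rps4x, its X-linked partner, was called higher in wild type, by 0.35, but not with centring on the median of tested genes (0.23, adjusted p = 0.0887) or without preleukemic array 3 (0.30, adjusted p = 0.0592, limma). Rpl7l1 was higher by 0.19 in Pax5+/- mice, where its partner Rpl7 differed by 0.02 and was not called. Rpl32l was called in wild type, by 0.19, a call that 9 of 19 alternatives lost or reversed. The testis-associated Rpl10l (0.04 and -0.03) and its partner Rpl10 (0.03 and 0.09) were called in neither.

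Few genotype differences were called. Between preleukemic Pax5+/- and wild-type arrays 1 of 60 members was called, Rps9, beside 0.786% of all tested genes. Rps9, a small-subunit protein needed early in assembly, lay between 12.04 and 12.17 (median 12.08) on the 7 Pax5+/- arrays and at 11.75, 11.52 and 11.41 on the wild-type arrays, without overlap. It was 0.52 ± 0.10 higher in Pax5+/- mice, or 1.43-fold (adjusted p = 0.00772, limma). Without preleukemic wild-type array 3 the difference was 0.44 ± 0.11 with an adjusted p of 0.13 (limma), and without array 1 it was 0.61 ± 0.11 with an adjusted p of 0.00463 (limma). At an unadjusted p under 0.05, 11 members (18.3%) passed, 10 of them higher in Pax5+/- mice, beside 9.22% of all tested genes. Groups did not overlap for 4 higher members, where 1.94% of tested genes had such groups, and for 1 lower, Rps4l, where 3.45% had.

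Among leukemic arrays no member was called by genotype, beside 0.16% of all tested genes (limma). At an unadjusted p under 0.05, 3 members (5%) passed, beside 7.6% of all tested genes, and Rpsa had the smallest adjusted p, 0.194 (limma). Rpsa was also the member whose leukemic groups did not overlap, with every Pax5+/- array below every wild-type array (11.80 to 12.13 against 12.13 to 12.34, adjacent at this rounding), as in 0.198% of tested genes. The leukemic difference of Rps9 was 0.21 ± 0.08 and was not called.

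The difference between the genotypes' stage differences was called for no member, beside 0.185% of all tested genes (limma), and 6 members (10%) passed an unadjusted p under 0.05, near the 8.47% of all tested genes. The smallest adjusted p was 0.438, for Rpl38 (limma). Rps27l had a value of -0.37 ± 0.25 in this comparison.

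Rps3a1 had the widest spread of any member within both Pax5+/- groups. Its preleukemic Pax5+/- arrays ran from 9.37 to 11.13 (median 10.53), a SD of 0.62, and its leukemic ones from 9.74 to 10.90 (median 10.33), a SD of 0.43. All wild-type arrays were at the low end, at 9.67, 9.35 and 9.36 and at 9.56, 9.77, 9.87 and 9.74. Its genotype differences, 0.87 ± 0.30 before leukemia and 0.55 ± 0.26 in leukemia, were not called (adjusted p = 0.272 and 0.623, limma). This gene lies outside the naming rule and was chosen after its values were seen. The median SD of the members was 0.111 and 0.102 in these groups, and 0.106 and 0.0775 in preleukemic and leukemic wild type, beside 0.123, 0.17, 0.151 and 0.133 over all tested genes. The 114 other genes at least as bright as the median member had 0.0997, 0.135, 0.121 and 0.0872, so the members' median SD was above theirs in preleukemic Pax5+/- arrays and below it in the other groups, a difference that was not tested.

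The stage difference did not change steadily with the level, and its median was nearest to 0 among the brightest members. The 7 tested members with a mean log2 signal of 13 or more had median differences of -0.01 in Pax5+/- mice and 0.00 in wild type, with 0 called higher and 3 lower in Pax5+/- mice and none called in wild type. The 19 members between 12 and 13 had medians of 0.24 and 0.30, and 12 and 14 of them were higher. The 63 other tested genes in that range had medians of -0.10 and -0.03. The 8 others at 13 or more had -0.08 and -0.11. How many of those other genes were called is not given here. The counts by level are thus not shown to be particular to the members. Members at levels of 9 to 10, 10 to 11 and 11 to 12 had medians of 0.34, 0.30 and 0.19 in Pax5+/- mice. In wild type these were 0.43, 0.43 and 0.22. The 7 tested members below 9 had medians of 0.13 in Pax5+/- mice and -0.03 in wild type. Without the paralogs, level and difference had a Pearson correlation of -0.38 in Pax5+/- and -0.32 in wild-type mice and a Spearman correlation of -0.44 in both, over 54 genes on shared arrays. The highest deposited value of any probe set was 14.2, and whether the brightest probe sets were near saturation was not tested.

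**Figure D5:**
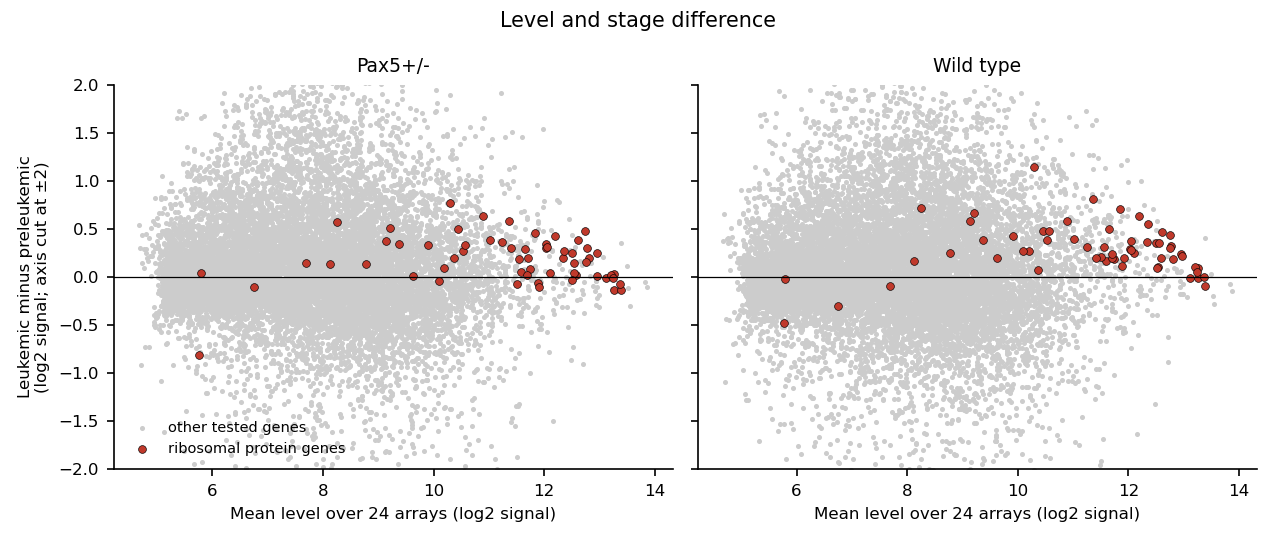
Difference in log2 signal between leukemic and preleukemic arrays against the mean level over 24 arrays, for ribosomal protein genes (red) and other tested genes (grey), in Pax5+/- mice (left) and wild type (right), with the vertical axis limited to -2 to 2. Most ribosomal protein genes lie at the bright end, and the 7 above 13 sit near 0.

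Several probe sets were deposited for 39 of the members, up to 14 for a gene, and 22 members had a single one. All probe sets of a gene had stage differences of one sign for 33 of the 39 genes in Pax5+/- mice and for 36 in wild type. For some genes, such as Rpl41 and Rps12, several probe sets had the same values and may not be separate measurements. The range between probe sets of a gene had a median of 0.09 in both genotypes and reached 0.47 and 0.44. Ribosomal protein genes have many processed copies in the genome, and signals of a gene and of its copies cannot be told apart here.

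Other genes of ribosome production are given from lists, whose counts are to be read against the shares of all tested genes. On deposited values 27.8% of these were higher and 35.1% lower in Pax5+/- mice, and 18.7% and 20.4% in wild type. With centring on the median of tested genes the shares were 18.1% and 57.1% in Pax5+/- mice, and 14.1% and 36.7% in wild type. Of 34 ribosome assembly genes, 31 were higher and 1 lower in leukemic Pax5+/- arrays (median 0.76), and 30 were higher and none lower in wild type (median 0.84). With centring on the median of tested genes the counts were 26 and 1 in both. Srm, which is on this list but makes the polyamine spermidine and is no assembly factor, was 5.83-fold and 6.51-fold higher (adjusted p = 4.67e-09 and 4.83e-06, limma). The nucleolar GTPase Gnl3 was 3.50-fold and 3.39-fold higher, and the nucleolar chaperone Npm1 1.54-fold and 2.15-fold.

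Myc was 11.95-fold higher in leukemic Pax5+/- and 7.37-fold higher in leukemic wild-type arrays (adjusted p = 7.23e-09 and 0.00015, limma). It is on a list of 13 tested genes that control these messages, of which 3 were higher and 4 lower in Pax5+/- and 3 and 5 in wild-type mice, or 3 and 10 and 3 and 8 with centring on the median of tested genes. Larp1 rose by 1.03 and 0.69, and Rps6kb2, an S6 kinase, fell by 0.72 and 0.76. Mtor fell by 0.63 in wild type, and its Pax5+/- difference of -0.01 was not called. Among 17 translation factors whose messages share the pyrimidine tract, 6 were higher and 5 lower in Pax5+/- mice (median 0.01) and 4 and 2 in wild type (median 0.06). Centred on the median of tested genes, 3 were higher and 10 lower in Pax5+/- mice and 3 and 5 in wild type. On deposited values the Pax5+/- counts of this list and of the 13 control genes were near the shares of all tested genes. The elongation factor subunit Eef1b2 rose by 0.55 and 0.82, and Eif3f fell by 0.49 and 0.39.

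Mitochondrial ribosomal proteins, which serve the separate ribosome of mitochondria, numbered 76 tested genes. Of these 32 were higher and 7 lower in Pax5+/- mice (median 0.15), and 32 were higher and 3 lower in wild type (median 0.30). Mrps6 was 1.86-fold and 1.88-fold higher and Mrps15 1.81-fold and 2.14-fold, whereas Mrpl49 fell by 0.83 and 0.70 on the log2 scale. With centring on the median of tested genes, 20 were higher and 19 lower in Pax5+/- mice, and 26 and 6 in wild type.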

How the data were processed

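The authors deposited log2 signals of 35556 probe sets on 1-colour Affymetrix mouse gene arrays, for which the submitters' processing notes name RMA and oligo. Tool versions, filters and batches were not given in the sources used here. RMA corrects background, normalizes quantiles and summarizes probes, and scanner files were not used here. The values ran from 3.48 to 14.2. The number of arrays limits the precision. Per the labels, replicates are biological, and series text gives numbers of mice.

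Of 23410 listed probe sets, 21789 have 1 symbol in the platform table, and only these were used to stand for a gene. A gene was tested when it reached the 30th percentile of the array on at least 3 arrays. A model with 1 mean for each of the 4 groups was fitted over the 24 arrays in R 4.3.3 with limma 3.58.1 (lmFit, contrasts.fit, eBayes; 20 residual and 2.29 prior degrees of freedom). Two-sided tests were made for 5 comparisons and adjusted by Benjamini-Hochberg over 15647 genes, with a threshold of 0.05. The fit was tested on simulated data. Folds were computed from the deposited log2 values and are given as brighter over dimmer.

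Named were the paralogs with their partners, the 5 largest rises and falls called per comparison, and 7 fixed genes. Up to 3 called genes per other list and comparison, and members that move most between scalings, were named too. Of the fixed genes, Rpl11 is not among the members, so no values of it are given. The members and lists were chosen with earlier results of these data known. Alternatives were other centrings, repeated quantile normalization, a trended robust eBayes, only the groups compared, array weights, other filters, averaged probe sets, the replicate number as a block, the Y-linked level as a covariate and each array left out. No arrays were duplicates: the highest correlation of a pair was 0.994 and the lowest root mean square difference 0.22. Same-numbered arrays of different groups had deviations correlated from -0.36 to 0.32 over 24 pairs, with a median of -0.02. Values of differently numbered pairs are not given here, so this does not settle whether the numbers pair the arrays.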

Additional observations from a re-analysis of the deposited data

Results flagged for a closer look

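In groups of 4 to 10 arrays, 69 sets of values, those of the 22 named members and of the family mean, were searched for a single array far from the rest of its group by Dixon's criterion, and 5 were found, where chance flags about 1 in 20. Rpl3l accounted for 2 of them: leukemic wild-type array 2 read 5.322, below the 5.44 to 5.45 of the others, and leukemic Pax5+/- array 2 read 6.218, above the 5.21 to 5.69 of the other arrays. Rps4l read 6.861 on leukemic wild-type array 4, above 6.69 to 6.70 on the others. Rpl5 read 12.34 on leukemic Pax5+/- array 10, above 12.02 to 12.17. Rps9 read 12.17 on preleukemic Pax5+/- array 7, above 12.04 to 12.08, and this array lies on the far side of the group from wild type.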

How the results depend on the processing

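Alignment of the arrays moved the counts most. In Pax5+/- mice the 32 higher and 4 lower members became 41 and 1 with centring on all probe sets, 13 and 22 with centring on tested genes, and 16 and 21 with centring on the family. In wild type the 36 and 1 became 44 and 1, 17 and 3, and 9 and 13. The lower count in wild type was 2 with only the groups compared, 3 with array weights and 0 with averaged probe sets, and array weights called 3 higher members by genotype before leukemia. A replicate block, which rests on numbers not known to pair the mice, gave 30 higher and 2 lower members in Pax5+/- mice. In wild type it gave 32 and 1. For alternatives other than the centrings, the shares of all tested genes are not given here. Counts that move under them are thus not shown to be particular to the members. With each array left out in turn, the counts were 30 to 35 higher and 3 to 5 lower in Pax5+/- mice, 21 to 34 and 1 to 2 in wild type, 0 to 1 and 0 to 1 by genotype before leukemia, and 0 for the other comparisons. The lowest wild-type count (21) and the 0 by genotype came without preleukemic wild-type array 3, the 2 lower members without preleukemic wild-type array 1, and the 1 lower by genotype without preleukemic Pax5+/- array 7. With the Y-linked level as a covariate the counts were 35 higher and 4 lower in Pax5+/- mice, and 37 and 1 in wild type. Within wild type the Y-linked level goes with stage, so the wild-type counts cannot separate sex from stage. Of 25 called results of named members, 14 kept direction and call under every alternative run. Over 608 results and alternatives, 568 kept both, 37 lost the call and 3 changed sign: Rpl7l1 in Pax5+/- mice (-0.005467, centred on tested genes), and Rpl32l (-0.089) and Rpl5 (-0.02783) in wild type (centred on the family). The cause of these changes was not tested.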
